A study of Mus musculus with 37 samples.

Results

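Bmp2, Bmp4, Bmp7, Id1, Id2, Id3, Msx1, Msx2, Smad6 and Smad7 are described here, 10 of the 35542 genes in a table of raw RNA-seq counts. They were taken by symbol, as 3 ligands of the bone morphogenetic protein (BMP) family and 7 genes that BMP signalling commonly switches on, and no measured value entered the choice. The libraries came from the tailbuds of 37 mouse embryos at embryonic day 8 to 8.5, 1 library per embryo, and the embryos had 6 to 11 somites, the paired blocks of mesoderm whose number dates an embryo. All were F1 offspring of C57BL/6 mothers and Castaneus males. The mothers of the 21 Smchd1 wt control embryos were Smchd1 fl/fl without Cre, so these embryos were Smchd1 fl/+. The mothers of the 16 Smchd1 matΔ embryos (matdel in the labels) were Smchd1 del/fl and carried MMTV-Cre, a transgene whose recombinase removes the floxed allele in the oocyte. Their offspring were Smchd1 del/+ and so had lost both the oocyte's supply of SMCHD1, a chromatin protein of gene silencing, and the maternal copy of its gene. The groups held 4 wt and 4 matΔ embryos at 6 somites, 4 and 3 at 7, 3 and 2 at 8, 3 and 2 at 9, 4 and 3 at 10, and 3 and 2 at 11. Of the wt embryos 13 were female and 8 male, and of the matΔ embryos 11 and 5. All embryos at 6 somites, and all matΔ embryos at 8 and at 9 somites, were female, so sex and stage are partly confounded.

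BMP ligands bind pairs of type I and type II serine/threonine kinase receptors, which phosphorylate SMAD1, SMAD5 and SMAD9. With SMAD4 these enter the nucleus and switch on direct target genes such as the Id genes. Smad6 and Smad7 are target genes too, and their products feed back to inhibit the pathway. At the posterior end of the embryo BMP signals act on ventral and extraembryonic mesoderm, including the allantois, the outgrowth that will form the umbilical vessels.

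Library depth ran from 0.916 to 80.6 in units of 1e6 counts, with medians of 11.96 in wt and 14.2 in matΔ. Each test below takes single embryos as its replicates, and the labels do not give their litters. Smchd1, the deleted gene, lay at 104 to 204 CPM (counts per 1e6 counts, scaled with TMM factors) in wt (median 149) and at 64.1 to 113 in matΔ (median 90.3). It differed by -0.74 on the log2 scale, with SE 0.074 (adjusted p = 1.27e-07, edgeR), in the direction of the labels. The 10 tailbud marker genes, among them T, Cdx2 and Tbx6, were detected in every embryo, and their summed level was 848 to 2202 CPM in wt and 1430 to 2107 CPM in matΔ. Genes of neighbouring tissues were present too. The 8 visceral endoderm genes summed to 8.27 to 4538 CPM in wt and 15.3 to 3419 CPM in matΔ, and the 8 primitive erythroid genes to 14.3 to 3924 CPM and 10.1 to 4246 CPM. The matΔ 6-somite replicates 1, 2 and 3 and the wt 7-somite replicate 2 were treated as doubtful, and results that rest on them are given with and without them. In replicates 1 and 2 of these matΔ embryos 2.77 and 1.82% of counts fell on ribosomal RNA loci, against at most 1.28% in the other embryos, and the remaining 2 libraries were the shallowest of their genotypes. In bulk tissue, fewer cells of a type and less RNA per cell cannot be told apart.

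All 10 genes were counted in every embryo, and they passed the filter on low counts in every comparison. The smallest counts in any embryo were 16 for Bmp7 and Smad6 and 18 for Bmp2. Levels were compared between genes as RPKM, the CPM divided by the exonic length in kilobases. The 10 genes fell into a high group of Id1, Id3, Msx1 and Id2, with Bmp4 and Msx2 in the middle and a low group of Smad6, Bmp7, Bmp2 and Smad7. Over all 37 embryos the mean level was 74.98 ± 18.5 RPKM for Id1 (SD, n = 37), 73.9 ± 17.3 for Id3 and 69.8 ± 13.6 for Msx1. These neighbours did not separate, since Id1 was above Id3 in 21 of 37 embryos and Id3 above Msx1 in 25. Id2 followed at 54.9 ± 9.41 RPKM, below Msx1 in 28 embryos and above Bmp4 in 37. Bmp4 stood at 25.4 ± 4.72 RPKM and Msx2 at 14.9 ± 3.30, and each was above the next gene down in all 37 embryos. The low group held Smad6 at 7.03 ± 1.83 RPKM, Bmp7 at 6.79 ± 1.203, Bmp2 at 4.11 ± 0.881 and Smad7 at 3.93 ± 0.929. Within it Smad6 was above Bmp7 in 18 of 37 embryos and Bmp2 above Smad7 in 23, so neither pair had an order, whereas Bmp7 was above Bmp2 in 35. Among all tested genes the levels ran from the 41.9th percentile for Smad7 to the 95.9th for Id1.

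Of the ligands, Bmp4 (chromosome 14, 46383520 to 46390669, GRCm38, minus strand) was therefore the most abundant per length. It shared 89 exonic bases with Gm15217 on the opposite strand, which had 131 counts in all embryos together. Bmp7 (chromosome 2, 172868012 to 172940321, minus strand) and Bmp2 (chromosome 2, 133552159 to 133562885, plus strand) lay on the chromosome that also carries Id1 (152736251 to 152737410, plus strand). The Id genes encode helix-loop-helix proteins without a DNA-binding region, which bind and block basic helix-loop-helix transcription factors. Id3 is on chromosome 4 (136143497 to 136145755, plus strand) and Id2 on chromosome 12 (25093799 to 25097140, minus strand). Msx1 (chromosome 5, 37820485 to 37824583, minus strand) and Msx2 (chromosome 13, 53466884 to 53473074, minus strand) encode homeobox transcription factors. Smad6 (chromosome 9, 63953076 to 64022059, minus strand) and Smad7 encode the inhibitory Smads.

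The 250 bases upstream of the RefSeq start sites of Msx1, Smad6 and Bmp4 are shown because Smad6 varied between embryos with each of the other two, as described below. They are written 5′ to 3′ on the minus strand from GRCm38.p6, and capitals mark GTCT or its reverse complement AGAC, the 4 bases that Smad proteins bind. The Msx1 window is chr5:37824586-37824835, that of Smad6 chr9:64022060-64022309 and that of Bmp4 chr14:46390670-46390919.
Msx1: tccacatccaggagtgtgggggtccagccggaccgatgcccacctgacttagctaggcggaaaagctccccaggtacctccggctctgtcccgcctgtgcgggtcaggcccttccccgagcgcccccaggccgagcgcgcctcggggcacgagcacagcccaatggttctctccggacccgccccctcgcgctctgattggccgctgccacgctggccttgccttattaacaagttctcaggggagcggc
Smad6: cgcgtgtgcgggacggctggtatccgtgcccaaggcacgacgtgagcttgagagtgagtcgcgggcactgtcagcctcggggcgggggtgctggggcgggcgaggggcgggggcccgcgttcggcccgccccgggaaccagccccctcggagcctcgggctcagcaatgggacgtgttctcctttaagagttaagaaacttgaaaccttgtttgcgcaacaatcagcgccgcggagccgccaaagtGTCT
Bmp4: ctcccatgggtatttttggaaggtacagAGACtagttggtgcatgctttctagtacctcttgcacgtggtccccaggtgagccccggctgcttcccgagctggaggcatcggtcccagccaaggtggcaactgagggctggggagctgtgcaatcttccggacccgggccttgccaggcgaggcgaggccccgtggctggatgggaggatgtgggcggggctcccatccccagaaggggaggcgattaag
Counted on both strands, GTCT occurred 1 time in the Smad6 window, 1 time in that of Bmp4 and 0 times in that of Msx1. It was present in 83.0% of 27025 promoter windows of this length. GGCGCC, a GC-rich word bound by BMP Smads, occurred in none of the printed windows and in 9.54% of all promoters, and among the 6 genes with a promoter sequence it was found in that of Id2. These matches describe the letters of the windows only. Promoter windows of Id1, Bmp2, Bmp7 and Smad7 were not analysed here.

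The first question was how the genes change as the tailbud develops, which was read from the slope of log2 expression per somite, in the wt embryos alone. Both Msx genes had lower medians in later wt embryos, without passing the adjusted threshold. Msx1 was at 171 to 264 CPM (median 240) in the 8 wt embryos with 6 or 7 somites and at 142 to 227 CPM (median 188) in the 7 with 10 or 11 somites. Msx2 was at 40.1 to 64.2 CPM (median 60.9) early and 25.7 to 51.6 CPM (median 47.6) late. For both genes the ranges overlapped, with the lowest values at 11 somites in wt. The slope was -0.083 per somite for Msx1 (SE 0.028, adjusted p = 0.079, edgeR) and -0.094 for Msx2 (SE 0.030, adjusted p = 0.0689, edgeR), so neither passed the threshold of 0.05 after adjustment over 15667 genes. Over the 5 somite intervals the fitted difference came to -0.41 on the log2 scale for Msx1 and -0.47 for Msx2. Of 30 alternatives, Msx1 passed in 3 and Msx2 in 4. With DESeq2, where 1325 of 15647 tested genes passed, both genes did (adjusted p = 0.0355 and 0.0301). They were likewise past the threshold without the wt 6-somite replicate 4 (adjusted p = 0.0462 and 0.0223, edgeR). Msx1 passed without the wt 6-somite replicate 2 (adjusted p = 0.0276, edgeR) and Msx2 without the wt 10-somite replicate 1 (adjusted p = 0.0406, edgeR) or with replicate number as a block (adjusted p = 0.0353, edgeR). With the summed levels of the allantois, visceral endoderm and erythroid marker lists as covariates, the slopes were -0.041 and -0.068. The visceral endoderm list had a median of 1474 CPM in the 11 wt embryos with 6 to 8 somites and of 188 CPM in the 10 with 9 to 11, and the erythroid list one of 111 and 902 CPM. The allantois list stood at 282 and 280 CPM. The surface ectoderm and amnion list, which was not among the covariates, had a median of 491 and 380 CPM. The part of these lists in the slopes of the Msx genes was not tested further.

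Id2 and Bmp7 had smaller slopes in wt. Id2 was at 112 to 144 CPM (median 129) early and at 121 to 182 CPM (median 143) late, with a slope of 0.052 per somite (SE 0.022, adjusted p = 0.179, edgeR). Bmp7 was at 25.3 to 38.5 CPM (median 28.7) early and 21.5 to 29.9 CPM (median 24.9) late, with a slope of -0.055 (SE 0.024, adjusted p = 0.197, edgeR). With the 3 marker lists as covariates the slope of Id2 was 0.017 and that of Bmp7 turned to 0.0078. The other 6 genes, Bmp2, Bmp4, Id1, Id3, Smad6 and Smad7, had slopes between -0.058 and 0.046 and unadjusted p-values from 0.152 to 0.943 (edgeR). In all, 0 of the 10 genes passed the adjusted threshold, where 5.65% of all tested genes did, and 4 of 10 had an unadjusted p under 0.05, against 20.5% of all tested genes. The median slope of the 10 genes was -0.03, against -0.00 over all tested genes.

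In the 16 matΔ embryos, none of which entered the wt fit, Id2 again had a positive slope. It was at 92.6 to 131 CPM (median 105) in the 7 matΔ embryos with 6 or 7 somites and at 121 to 140 CPM (median 130) in the 5 with 10 or 11 somites. Its highest values, 163 and 185 CPM, were those of the 9-somite pair. The slope was 0.085 per somite (SE 0.032, adjusted p = 0.138, edgeR). A fit of all 37 embryos with genotype and sex as covariates was chosen after seeing the data. In it Id2 had a slope of 0.068 and was the only one of the 10 genes past the threshold (adjusted p = 0.0124, edgeR). Of all 15762 genes tested in that fit, 2921 passed. Msx1 (-0.041) and Msx2 (-0.026) had negative slopes in matΔ, with adjusted p = 0.611 and 0.846 (edgeR). Here 0 of the 10 genes passed, where 4.01% of all tested genes did, and 1 had an unadjusted p under 0.05, against 19.9%.

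**Figure D1:**
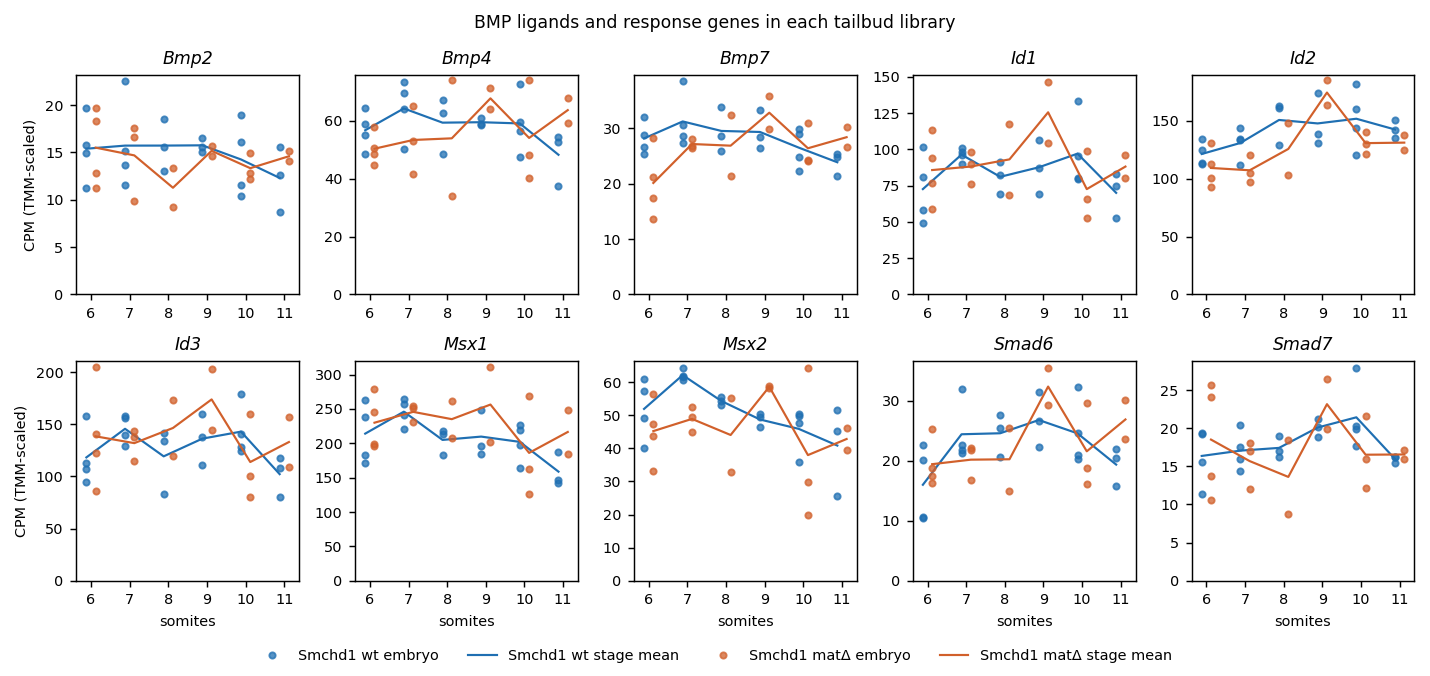
Level of each of the 10 genes in CPM (vertical axis) against somite number (horizontal axis), 1 point per embryo, coloured by genotype, with lines through the stage means. In wt, the median of Msx1 is 240 CPM at 6 and 7 somites and 188 at 10 and 11, that of Msx2 60.9 and 47.6, and the points of both genotypes overlap at most stages.

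The slopes of the genotypes were then compared directly, as the interaction of somite number and genotype. Bmp7 stood out among the 10 genes, since its slope was negative in wt and 0.079 in matΔ (SE 0.041, adjusted p = 0.303, edgeR), a difference of 0.12 per somite (SE 0.047, adjusted p = 1, edgeR). This rested on the youngest matΔ embryos. At 6 somites Bmp7 was at 25.3 to 32.1 CPM in wt and at 13.6, 17.5, 21.2 and 28.3 CPM in matΔ, and the 3 lowest of these were the doubtful libraries, with counts as low as 16. Without the 4 doubtful libraries the matΔ slope of Bmp7 was 0.0039 and the difference 0.062. The other 9 genes had differences between -0.020 and 0.088, with unadjusted p from 0.0953 to 0.899 (edgeR). None of the 10 passed the threshold after adjustment, where 0% of all tested genes did, and 1 had an unadjusted p under 0.05, against 3.67%.

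The series was designed to compare matΔ with wt at matched somite number. Over all stages, no difference in the 10 genes passed the threshold. The smallest p was that of Id2, which was at 112 to 182 CPM in wt (median 135) and at 92.6 to 185 CPM in matΔ (median 123). Its log2 fold change, adjusted for somite number and sex, was -0.14 (SE 0.062, adjusted p = 0.864, edgeR). The ranges overlapped almost whole. For Msx1, at 142 to 264 CPM in wt (median 214) and 126 to 311 CPM in matΔ (median 238), the log2 fold change was 0.13 (SE 0.086, adjusted p = 0.866, edgeR). The log2 fold changes of the 10 genes lay between -0.14 and 0.13 with standard errors of 0.062 to 0.11. A share of 0.0136% of all genes passed, and of the 10 genes 0 did. An unadjusted p under 0.05 was found for 1 of the 10, against 5.66% of all genes.

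At 6 to 8 somites, a window that the study also used, Id2, Msx2 and Bmp7 had lower medians in matΔ, and none of the differences passed after adjustment. Id2 was at 112 to 163 CPM (median 133) in 11 wt embryos and at 92.6 to 148 CPM (median 105) in 9 matΔ embryos, a log2 difference of -0.26 (SE 0.081, adjusted p = 0.47, edgeR). Msx2 was at 40.1 to 64.2 CPM (median 57.2) in wt and 32.9 to 56.5 CPM (median 47.4) in matΔ, a log2 difference of -0.29 (SE 0.10, adjusted p = 0.476, edgeR). At 7 somites the groups did not overlap for Msx2, with 60.8 to 64.2 CPM in the 4 wt and 44.8 to 52.4 CPM in the 3 matΔ embryos, whereas at 6 and 8 somites they did. At 9 somites they were apart the other way (below). How many of all genes fail to overlap at a stage was not counted. Bmp7 was at 25.3 to 38.5 CPM (median 28.7) in wt and at 13.6 to 32.4 CPM (median 26.5) in matΔ, a log2 difference of -0.32 (SE 0.12, adjusted p = 0.533, edgeR). Without the doubtful libraries the log2 fold changes were -0.29 for Id2, -0.29 for Msx2 and -0.17 for Bmp7 (unadjusted p no longer under 0.05). Bmp2 then had -0.39, with an unadjusted p under 0.05, so 3 of the 10 genes again had one. Of all 14763 genes tested in that setting, 1297 had one. Smad7 was at -0.28 (-0.12 with all libraries) and Smad6 at -0.22 (-0.11 with all libraries), and none of the 10 passed after adjustment.

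Bmp4 (median 62.5 CPM in wt, 50.4 CPM in matΔ) and Bmp2 (15.1 and 13.3 CPM) were lower in matΔ in this window by -0.21 and -0.24 on the log2 scale, with adjusted p = 0.666 and 0.704 (edgeR). The allantois list, which moved with both ligands between embryos (below), had a median of 282 CPM in these wt embryos and 240 CPM in these matΔ embryos. The endothelial list had a median of 295 CPM in wt and 223 CPM in matΔ, and correlated with Bmp4 at r = 0.55 and with Bmp2 at 0.51, neither past the threshold. With the 3 marker lists as covariates the values were -0.12 for Bmp4 and -0.16 for Bmp2. The value of Bmp2 ran from -0.39 without the doubtful libraries to -0.07 with the replicate block. The somite marker list had a median of 14.4 CPM in these matΔ embryos and 17.1 CPM in wt (highest 23.5), with its gene Pax1 at 0 in every embryo. Its highest matΔ value, 166 CPM, was that of the 6-somite replicate 2, a doubtful library. The part of these lists in the results was not tested further. In this window 0 of the 10 genes passed the threshold, where 0.0069% of all tested genes did, and 3 had an unadjusted p under 0.05, against 8.13%.

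Over 9 to 11 somites together, the ranges of those 3 genes overlapped between the genotypes. At single stages 2 of them were apart, with matΔ higher. Msx2 at 9 somites was at 46.4 to 50.4 CPM in 3 wt and 58.3 to 58.9 CPM in 2 matΔ embryos. Bmp7 at 11 somites was at 21.5 to 25.4 CPM in 3 wt and 26.7 to 30.2 CPM in 2 matΔ embryos. Among the other members, Bmp4 was apart in the same direction at 9 somites (median 58.8 CPM in wt, 67.7 CPM in matΔ). It was so too at 11 somites (52.7 and 63.7 CPM), as was Smad6 at 11 somites (20.4 and 26.9 CPM). How many of all genes are apart at these stages, with 3 against 2 embryos, was not counted. Id2 was at 121 to 182 CPM (median 143) in 10 wt embryos and 121 to 185 CPM (median 137) in 7 matΔ embryos. Msx2 was at 25.7 to 51.6 CPM (median 48.5) and 19.8 to 64.2 CPM (median 46.1), and Bmp7 at 21.5 to 33.3 CPM (median 25.9) and 24.1 to 35.9 CPM (median 29.8). Their log2 fold changes were -0.05 (SE 0.093), -0.02 (SE 0.19) and 0.11 (SE 0.089). None of the 10 genes had an unadjusted p under 0.05, against 1.75% of all tested genes, and 0 passed after adjustment, where 0.00671% of all genes did. Msx2 varied most within a group here, at 64.2, 19.8 and 29.9 CPM in the 3 matΔ embryos with 10 somites, and a difference of the size fitted for it at 6 to 8 somites would lie within 2 of its standard errors. The difference between the windows was not tested.

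**Figure D2:**
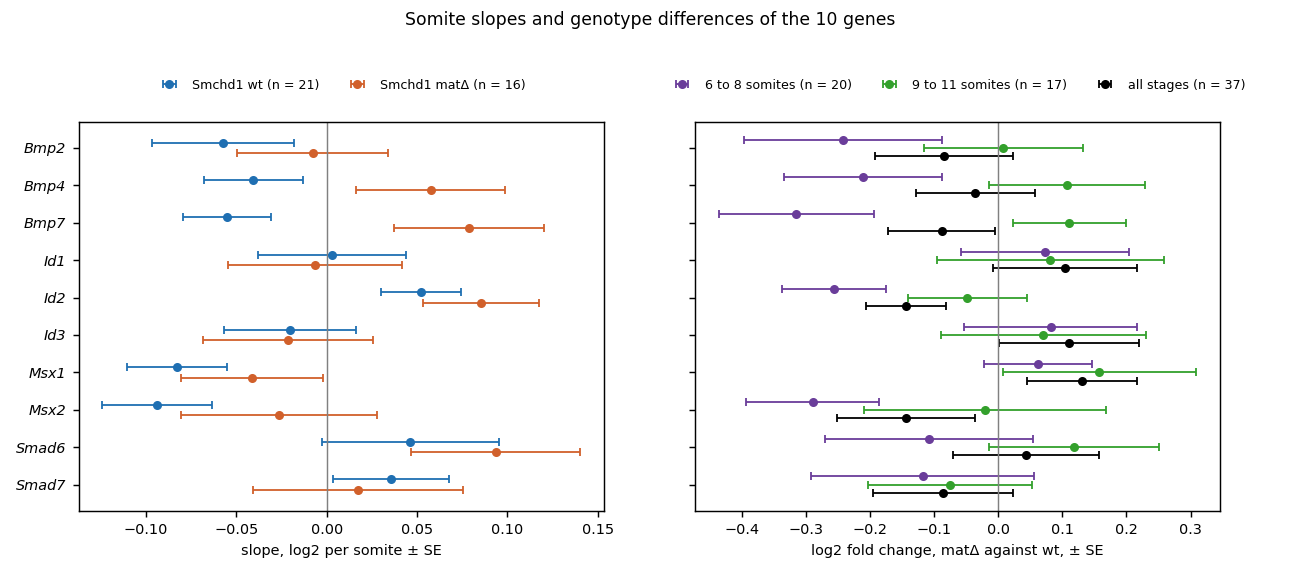
Fitted log2 values of the 10 genes with bars of 1 standard error, on the left the slopes per somite in each genotype and on the right the log2 fold changes of matΔ against wt at 6 to 8 somites, 9 to 11 somites and all stages. The values of Msx1 and Msx2 lie left of 0 for the wt slope (-0.083 and -0.094), and those of Id2, Msx2 and Bmp7 left of 0 at 6 to 8 somites (-0.26, -0.29 and -0.32). None passed the adjusted threshold.

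Embryos of the same genotype and stage nevertheless differed from each other, and many pairs of the 10 genes moved together in these differences. Each gene's log2 CPM was taken as the deviation from the mean of its genotype-by-stage group, over 37 embryos, and each of the 45 pairs was tested by permutation within groups (100000 resamples, two-sided). Of the 45 correlations 43 were positive, with a median r of 0.49. Pairs with r of at least 0.5 made up 48.9% of the 45, against 8.18% of all pairs of 14741 tested genes. After Benjamini-Hochberg adjustment over the 45 pairs, 26 were past 0.05, all positive, and with Spearman's rho 25. Without the 4 doubtful libraries 22 were, and without the matΔ 10-somite replicate 1 alone 14 were. Without the matΔ 8-somite replicate 1 or 2 or the matΔ 10-somite replicate 3, 17 were. Within the genotypes, 42 of 45 correlations were positive in wt and 42 in matΔ. The points share their libraries, and with them depth, base composition and dissection, so the correlations describe embryos and not links between the genes.

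The closest pair was Id1 and Id3, at r = 0.92 (rho = 0.91, adjusted permutation p = 0.00045), with 0.0215% of all gene pairs as high. It was 0.87 in wt and 0.97 in matΔ, and 0.91 without the 2 embryos farthest from the median of Id1. Msx1 belonged with them, at r = 0.80 with Id3 (rho = 0.79) and 0.79 with Id1 (rho = 0.78). Msx1 and Msx2 correlated at r = 0.78 (rho = 0.74, adjusted permutation p = 0.00045), and at 0.64 without the 2 farthest embryos, replicates 1 and 2 of matΔ at 10 somites, which stand at the upper and lower end of the plot of single deviations. Smad6 joined the same set, at 0.74 with Id1, 0.74 with Msx1 and 0.67 with Msx2. All these passed the adjusted threshold.

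The ligands Bmp2 and Bmp4 correlated at r = 0.63 (rho = 0.68, adjusted permutation p = 0.0019), and Bmp4 with Msx2 at 0.69 and with Smad6 at 0.63. Bmp2 hardly varied with Id1 or Id3 (r = 0.10 with each). Bmp4 was at 0.47 with Id1, short of the threshold, and at 0.51 with Id3, past it. The difference between the 2 ligands was not tested. Bmp7 correlated most with Msx1 (r = 0.64) and Msx2 (0.56). The correlations of Id2 with the other 9 genes ran from -0.18 to 0.29 and none passed, but this depended on the libraries and on the scale. Without the 4 doubtful libraries Id2 was at 0.65 with Smad7, which passed, at 0.49 with Id1 and at 0.41 with Smad6. With the dependence on GC content and length removed (below), Id2 with Smad6 (0.58) and with Id1 (0.56) passed. Of the 10 genes Id2 varied least within groups, with an SD of 0.18 on the log2 scale against a median of 0.27 over all tested genes. Smad7, the other inhibitory Smad, was past the threshold with Msx2 (r = 0.55), Bmp4 (0.54) and Smad6 (0.53). In wt alone these were 0.10, 0.17 and 0.40, and in matΔ 0.73, 0.70 and 0.69, a difference that was not tested.

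**Figure D3:**
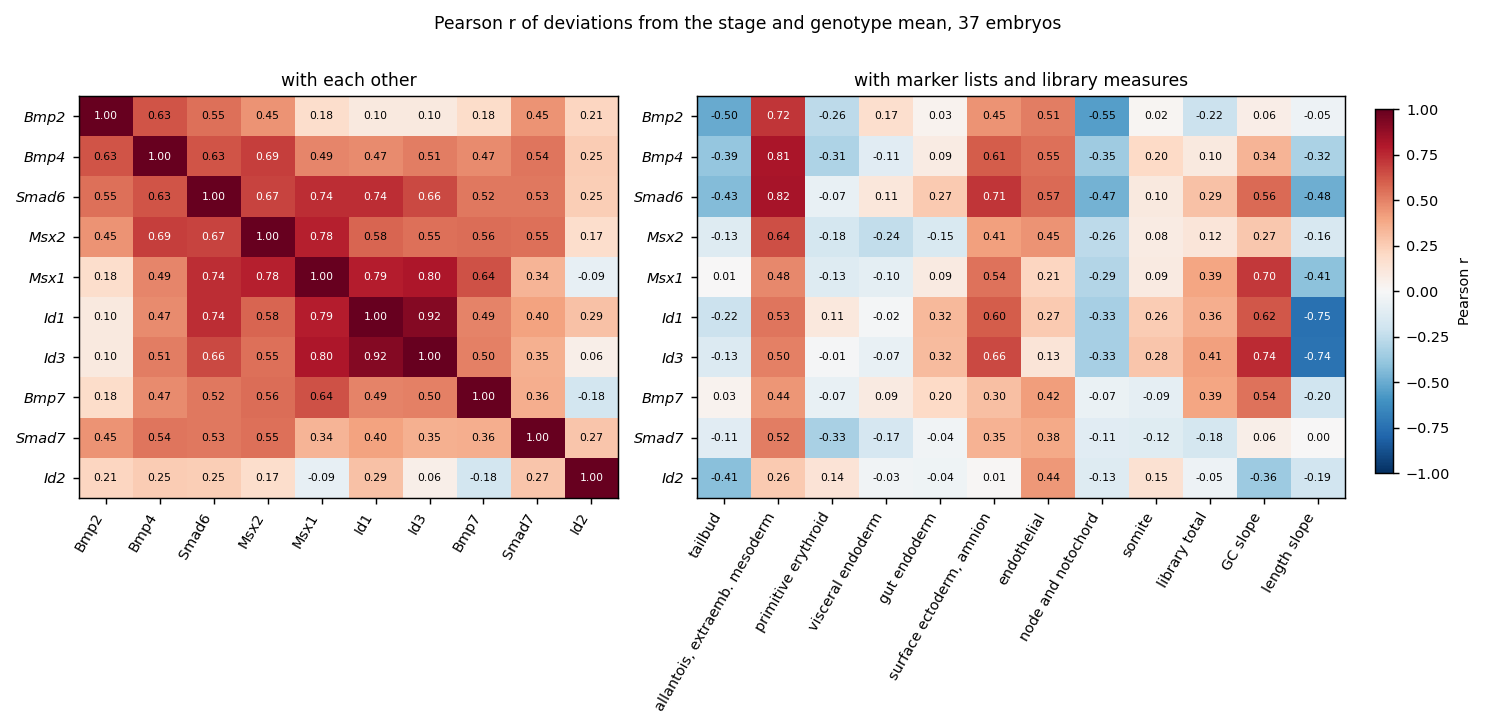
Pearson r of the deviations of log2 CPM from the group mean over 37 embryos, on the left for each pair of the 10 genes and on the right for each gene (rows) with 9 marker lists and 3 library measures (columns), on a colour scale from -1 to 1. On the left, Id1, Id3, Msx1, Msx2 and Smad6 form a block of high values, up to 0.92, while Id2 stays between -0.18 and 0.29 with the other 9 genes.

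**Figure D4:**
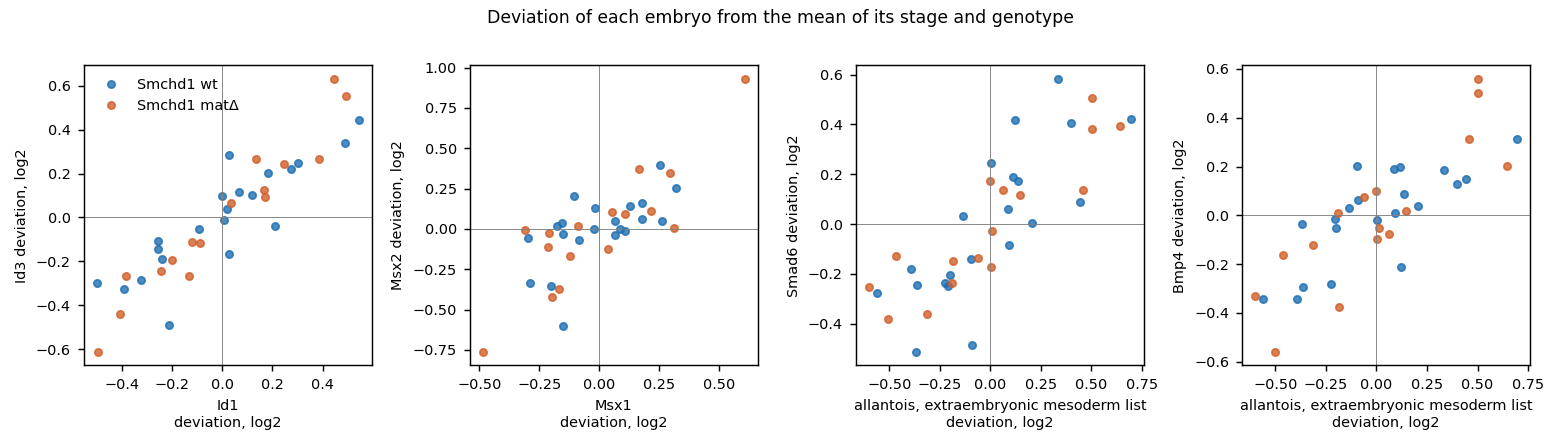
Deviations of log2 CPM from the mean of the same stage and genotype, 1 point per embryo, coloured by genotype, for Id3 against Id1, Msx2 against Msx1, and Smad6 and Bmp4 against the allantois and extraembryonic mesoderm list. Id1 and Id3 lie along a line (r = 0.92), and Smad6 and Bmp4 rise with the summed level of the allantois list (r = 0.82 and 0.81).

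Each gene was set against 12 measures of the library, 9 marker lists, depth, and the dependence of the library's values on GC content and on gene length, which gave 120 relations adjusted together. The allantois and extraembryonic mesoderm list (Tbx4, Foxf1, Pitx1, Hand2, Ahnak, Postn, Hoxa13 and Vcam1) summed to 171 to 488 CPM in wt and to 165 to 399 CPM in matΔ. Pitx1, Hoxa13 and Vcam1 were at 0 in some embryos, and no gene of the list was at 0 in all. The list correlated with Smad6 at r = 0.82 (rho = 0.85, adjusted permutation p = 0.0004), with Bmp4 at 0.81 (rho = 0.80), with Bmp2 at 0.72 (rho = 0.72), with Msx2 at 0.64 (rho = 0.63) and with Msx1 at 0.48 (rho = 0.51). These 5 passed the threshold, and Id2 was lowest at 0.26. Without the 2 embryos farthest from the median in the list's deviation, r was 0.80 for Smad6, 0.81 for Bmp4 and 0.68 for Bmp2. The surface ectoderm and amnion list correlated with Smad6 (r = 0.71), Id3 (0.66), Bmp4 (0.61), Id1 (0.60) and Msx1 (0.54), the endothelial list with Smad6 (0.57), and the node and notochord list with Bmp2 (-0.55).

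Removing the linear dependence on the allantois list from every gene, an alternative chosen after seeing the data, divided the pairs. The correlations of Id1 with Id3 (0.89), of Id3 with Msx1 (0.74) and of Msx1 with Msx2 (0.69) were nearly as before. Those of Bmp2 with Bmp4 (0.12), of Bmp4 with Smad6 (-0.11) and of Bmp2 with Smad6 (-0.09) were near 0. That of Bmp2 with Id1 became negative (-0.48, adjusted permutation p = 0.0154), as did 7 others, among them Bmp2 with Id3 (-0.43) and with Msx1 (-0.28). In all 10 pairs were past the threshold and 8 had r of at least 0.5, with a median of 0.18. Whether cells of the allantois in the dissected piece, or expression within the tailbud, carried the shared variation was not tested.

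The dependence on GC content and on length also moved with these genes. In single libraries the slope of log2 deviation on GC ran from -0.29 to 0.25 per 10% GC, and that on length from -0.13 to 0.16 per doubling of length, both extremes of the GC slope being doubtful libraries (matΔ 6-somite replicates 3 and 1). The GC slope correlated with Id3 (r = 0.74), Msx1 (0.70), Id1 (0.62) and Smad6 (0.56), and the length slope with Id1 (-0.75), Id3 (-0.74) and Smad6 (-0.48). Id1, with 1160 exonic bases, and Id3, with 1791, are the shortest of the 10, where the median of tested genes was 4201 bases, and Smad6 has the highest GC content at 60.8%, against a median of 49.8%. With both slopes removed, an alternative chosen after seeing the data, 24 pairs were past the threshold and 21 had r of at least 0.5. Of the 22 pairs at or above 0.5 before, 17 were so after the removal and 5 were not (among them Bmp7 with Msx1, at 0.43), and 4 pairs were new (Id1 and Id3 with Smad7, Id2 with Smad6 and Id1 with Id2). Id1 with Id3 was then at 0.81 and Msx1 with Msx2 at 0.86. Depth was not past the threshold with any of the 10 genes (r from -0.22 to 0.41).

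The genes of the whole transcriptome whose deviations were most like those of each gene were searched among 14740 others, as a description over 37 embryos. Bmp4 was closest to Efnb3 (r = 0.90), which encodes an ephrin ligand, Spin2c (0.84) and Tmem88 (0.82), and Bmp2 to Rgs5 (0.82), Kalrn (0.79) and Man1a (0.76). For Bmp7 they were Hsf1 (0.77), 4932441J04Rik (0.76) and Triobp (0.72). Msx1 was closest to Wnt6 (0.85), Hoxb6 (0.84) and Thap11 (0.82), and Msx2 to Gm11532 (0.88), Sp6 (0.88) and Foxf1 (0.82). Smad6 was closest to Twist2 (0.86), Tmem119 (0.85) and Phlda2 (0.84), and Smad7 to Hoxa13 (0.79), Nrm (0.76) and Rnft1 (0.69). Of these Foxf1 and Hoxa13 stand on the allantois list and Wnt6 on that of surface ectoderm and amnion. Id1 and Id3 were each other's closest gene, followed by Nfkbil1 (0.89) and Mrpl52 (0.88) for Id1 and by Htra2 (0.90) and Ccdc61 (0.88) for Id3. Id2 was closest to Kif18a (0.75), Trim23 (0.74) and Pno1 (0.72).

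Other genes of the pathway were read from a list of 58. Per length, the highest were the mediators Smad4 (40.2 RPKM) and Smad5 (19.4), the type I receptor Bmpr1a (39.4) with the type II receptor Acvr2b (15.0), and the response genes Hand1 (32.1) and Bambi (12.6), a pseudoreceptor that inhibits signalling. The extracellular modulator Twsg1 was at 27.9 RPKM and Fst, the activin and BMP antagonist follistatin, at 5.25. The ubiquitin ligase gene Smurf2 (19.2) and the corepressor gene Ski (18.4) led the intracellular regulators. The most abundant other ligands, Bmp5 (4.83) and Bmp8b (2.17), were below Bmp4, Bmp7 and, for Bmp8b, also Bmp2.

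Over somite number in wt, 48 of the 58 passed the filter, 5 rose, 1 fell and 42 did not pass the test, so 6 of 48 were called, against 5.65% of all tested genes. Fst fell by 0.69 per somite on the log2 scale (SE 0.091, adjusted p = 4.33e-05, edgeR), from 5.91 to 182 CPM (median 34.8) in wt embryos with 6 or 7 somites to 6.22 to 9.64 CPM (median 7.67) in those with 10 or 11. The value of 5.91 CPM was that of the wt 7-somite replicate 2, a doubtful library. In the other early wt embryos Fst was at 23.8 to 182 CPM, above all the late ones. Skil, which encodes a corepressor of Smads, rose by 0.16 (SE 0.028, adjusted p = 0.000573, edgeR), from 47.5 to 64.6 CPM to 60.7 to 108 CPM. Tll2, a protease gene at 0 to 0.694 CPM early and 0.120 to 2.58 CPM late, rose by 0.58 (adjusted p = 0.00212, edgeR). Smurf1 (0.094, adjusted p = 0.0178, edgeR), Ski (0.084, adjusted p = 0.0303, edgeR) and the type II receptor gene Acvr2a (0.093, adjusted p = 0.0327, edgeR) rose less. All 6 were short of the threshold with the 3 marker lists as covariates, a setting in which 1 of all 15667 tested genes passed, against 885 without them. Acvr2a and Ski were also short of it when any of 5 embryos was left out, and Smurf1 without the wt 11-somite replicate 3.

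**Figure D5:**
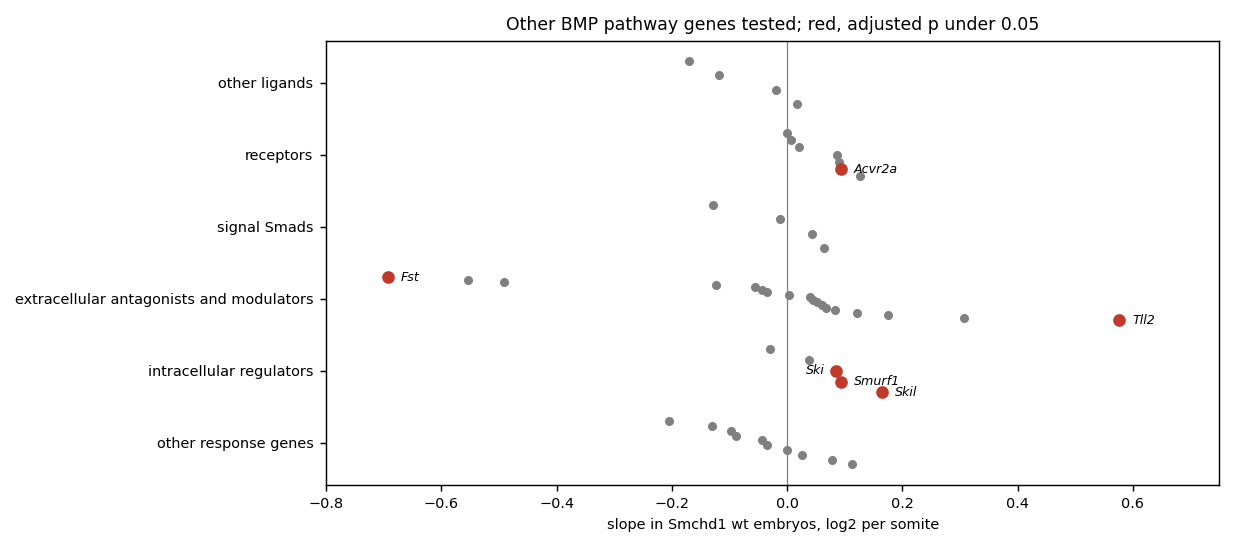
Slope per somite in the 21 wt embryos (horizontal axis, log2) of the 48 tested genes of the pathway list, 1 point per gene, in rows by class, with genes past the adjusted threshold in red. Fst stands far left at -0.69 and Tll2 far right at 0.58, and the other 4 called genes lie between 0.084 and 0.16.

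In matΔ, 51 of the 58 passed the filter, 2 rose and 3 fell, so 5 of 51 were called, against 4.01% of all tested genes. Fst fell by 0.59 per somite (adjusted p = 0.000176, edgeR) and Skil rose by 0.21 (adjusted p = 0.000336, edgeR). Rgma, which encodes a BMP co-receptor, fell by 0.18 (adjusted p = 0.00331, edgeR), from 28.4 to 44.4 CPM (median 33.8) at 6 or 7 somites to 19.7 to 24.6 CPM (median 21.3) at 10 or 11, with no overlap. In wt its slope was -0.03, and the difference between the slopes was -0.15 (adjusted p = 1, edgeR). With the 3 marker lists as covariates Rgma (adjusted p = 0.142, edgeR) and Skil (adjusted p = 0.0812, edgeR) did not pass. In that setting 77 of all tested genes passed, against 651 without the lists. Smurf1 rose by 0.10 (adjusted p = 0.0482, edgeR), a call made in 7 of 23 alternatives. The antagonist gene Cer1 fell (adjusted p = 0.00066, edgeR), but it was at 0 counts in 30 of 37 embryos and its slope rested on 6.30 and 12.9 CPM in replicates 1 and 2 at 6 somites, both doubtful libraries. For the difference in slope 0 of 45 tested genes passed (3 with an unadjusted p under 0.05, against 3.67% of all genes, edgeR), and for genotype 0 of 45 passed over all stages, 0 of 44 at 6 to 8 and 0 of 47 at 9 to 11 somites (2, 4 and 2 with an unadjusted p under 0.05, against 5.66, 8.13 and 1.75% of all genes, edgeR).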

How the data were processed

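Total RNA of single tailbuds was made into poly(A) TruSeq libraries, stranded or non-stranded, and sequenced as single-end reads. Which library had which kit was not given in the sources used here. The submitters' processing notes name bcl2fastq, Trim Galore 0.4.4, HISAT2 2.0.5 and GRCm38.p6, and the authors counted reads per gene in SeqMonk. The deposited values used here are raw counts per gene, not normalised, of which 35542 of 35591 rows were kept (49 repeated an identifier). For 26 genes a spreadsheet date stood in place of the name and was replaced by identifier, and 0 sample columns were left unused. Of the identifiers, 35506 are in GENCODE M21, the source of exonic lengths and GC content. Other deposited tables, the authors' log2 RPKM of Hox genes and their list of comparisons with p-values and fold changes, were not used.

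Groups came from genotype and somite number in the labels. Counts were tested with edgeR 4.0.16 (quasi-likelihood, filterByExpr with a minimum count of 10, TMM, two-sided), adjusted by Benjamini-Hochberg over all genes tested, in R 4.3.3, and with DESeq2 1.42.0 as an alternative. A slope per somite was fitted in each genotype. Its difference was fitted with sex, and genotype differences with sex and each somite number as its own level. Deviations used log2 CPM with a prior count of 2. RPKM used TMM-scaled CPM and exonic length. A marker list level is the sum of its genes' CPM, taken as log2 with a pseudocount of 1. The edgeR fit, for the slope in wt and for genotype over all stages, and the permutation of correlations within groups were tested on simulated data. The 10 genes, the pathway and marker lists, the doubtful libraries and the tests were chosen with earlier results of these data known. The genes named are the 10, Smchd1, the pathway genes past the threshold and the 2 highest of each class, and the 3 genes most like each of the 10. Exceptions, named after their values were seen, are marker genes at 0.

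Pairs of libraries within a group differed beyond sampling noise (chi-square per degree of freedom 5.12 to 72.3 over 42 pairs), so each counts as 1 replicate. Alternatives were other size factors, no filter, marker list levels as covariates, sex in or out, female embryos only, the replicate number as a block, and leaving out each embryo or the doubtful libraries. Promoter sequences are those of RefSeq, on GRCm38.p6.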

Additional observations from a re-analysis of the deposited data

Results flagged for a closer look

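Smad6 in the wt embryos with 7 somites was at 31.9 CPM in replicate 4 and at 21.2, 21.8 and 22.7 CPM in the others. The gap to the nearest embryo, divided by the range of the group, was 0.866, above Dixon's 95% critical value for 4 samples. It was the 1 case among 40 groups of 4 embryos tested over the 10 genes, and chance gives about 1 in 20.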

How the results depend on the processing

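The number of genes called and the 10 genes' part in it depended on the settings as follows, and the causes were not tested. For the slope in wt, 885 genes passed, against 1 with marker list covariates, 1910 in female embryos, 2921 in a fit of all 37 embryos chosen after seeing the data, and 628 to 2003 with 1 embryo left out (2003 without the wt 10-somite replicate 1). Of the 10 genes, 0 passed, against 2 with DESeq2 (where 1325 of all 15647 tested genes passed), 1 with the replicate block, 1 with all 37 embryos and 0 to 2 with 1 embryo left out. For the slope in matΔ, 651 genes passed, against 1503 with DESeq2, 429 without the doubtful libraries, 77 with marker list covariates and 439 to 901 with 1 embryo left out. For the slope difference 0 passed, and 39 without the filter. For genotype over all stages 2 passed, 1 in female embryos, 1 with the block and 2 to 3 with 1 embryo left out. At 6 to 8 somites 1 passed, 39 without the filter, 30 with DESeq2, 2 with marker covariates, 2 without sex, 0 with the block, 0 in female embryos and 0 to 2 with 1 embryo left out (2 without the wt 6-somite replicate 4, 0 without the wt 7-somite replicate 4 or the matΔ 7-somite replicate 1). At 9 to 11 somites 1 passed, 0 with the block, 0 in female embryos and 0 to 1 with 1 embryo left out. Ranked by CPM instead of RPKM, 2 of the 10 genes kept their rank. Of the 45 pairs, 26 passed, against 10 with the allantois list removed and 14 to 28 with 1 embryo left out (17 without the matΔ 8-somite replicate 1 or 2 or the matΔ 10-somite replicate 3, 14 without the matΔ 10-somite replicate 1). With the allantois list removed, the correlations of Bmp2 with Id1 (-0.480), Msx2 (-0.0236) and Smad6 (-0.0895) and of Bmp4 with Smad6 (-0.113) changed sign, as did those of Bmp2 with Id3 (-0.43), Msx1 (-0.28) and Bmp7 (-0.22) and of Id2 with Id3 (-0.08), 8 in all. Of 1960 other fits of single genes among the 10, 8 passed the threshold, 73 had the other sign and 0 were reversed and past it.

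Same replicate numbers did not in general pair the embryos across genotypes (median r of deviations -0.001, over 0.1 in 4 of 16 pairs, from -0.29 to 0.65). The pairs at 9 somites were at 0.65 and 0.40, and whether they shared a batch was not tested. With the replicate block 934 genes passed for the slope in wt, 859 for that in matΔ and 0 for their difference. Depth limits Bmp2, Bmp7 and Smad6 in the shallowest library, with 16 to 18 counts.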
